A study of Bos taurus with 18 samples.

Results

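When satellite cells, the resident stem cells of skeletal muscle, differentiate in culture, a set of genes that was nearly silent in growth medium becomes active. The genes described here are those that were activated when serum was lowered and that also reached at least 50% of that level in a serum-free differentiation medium. They were chosen on mean levels in CPM, the counts of a gene scaled to a common library total: below 1 CPM in growth medium with serum (GM), at least 5 CPM after differentiation in low serum (DM), and a mean in the serum-free differentiation medium (SFDM) of at least 50% of the DM mean. Of 27607 gene identifiers in the table, 150 met both the GM and the DM limit, and 91 of these met the SFDM limit as well. The other 59 stayed below 50% of DM in SFDM. None of the identifiers could be matched to a gene symbol with the tables used here. The 91 genes are therefore described by their levels, mostly by their rank in DM. The lineage of the cells could not be checked against marker genes.

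Satellite cells that leave the cell cycle become myocytes and fuse into multinucleated myotubes. Transcription factors of the MyoD family and of the MEF2 family then switch on genes for the contractile apparatus, for calcium handling and for muscle energy metabolism. In standard culture the switch is triggered by taking most of the serum away. A medium for cultured meat has to reach it without serum. Which of the 91 identifiers belong to these classes is not known from the files.

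The cells came from Belgian Blue cattle, and poly(A) RNA was sequenced from 6 groups of 3 replicate cultures, A, B and C. GM, with 20% fetal bovine serum (FBS), and SFGM, a serum-free growth medium, were sampled at 0 h. The other groups were sampled after 72 h. Cells from GM had been moved to DM with 2% FBS. Cells from SFGM had been moved to one of 3 serum-free media: the base medium SFB, the differentiation medium SFDM on a DMEM/F-12 base, or the same differentiation medium on a DMEM base, which is called DMEM here. The libraries held 16162525 to 28589018 counts, the smallest being SFDM replicate A, so that 1 CPM stood for 16.2 to 28.6 counts per library. No SFGM or GM library was taken at 72 h, so a medium and the time spent in it cannot be told apart. In RNA from whole cultures, fewer cells that express a gene and less RNA per cell cannot be told apart either.

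GM, DM and SFDM values chose the 91 identifiers, and differences that involve those groups are therefore described without a test. Tests were run on the 3 groups that the choice did not use: SFGM, SFB and DMEM.

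Summed over the 91 identifiers, the level in the 3 DM libraries was 3219, 3072 and 3366 CPM, and in the 3 SFDM libraries 3108, 3073 and 3102 CPM. The ranges of the DM and SFDM libraries overlapped. In the DMEM libraries the sum was 1493, 1476 and 1539 CPM, and in SFB 865, 782 and 686 CPM. Before differentiation it was 134, 130 and 135 CPM in SFGM and 42.1, 40.9 and 45.4 CPM in GM. As a share of the DM mean, the sum stood at 96.1% in SFDM, 46.7% in DMEM, 24.2% in SFB, 4.14% in SFGM and 1.33% in GM. Among the 72 h groups SFB had the widest relative spread, with replicate A high and replicate C low (777 ± 89.7 CPM, SD, n = 3). By the rule, every summed identifier was at 50% or more of DM in SFDM, with no such limit on DMEM or SFB. The share of 96.1% and its lead over the other media are therefore set in part by the choice. Over all 150 identifiers, chosen without regard to SFDM, the median share of DM was 64.5% in SFDM, 37.4% in DMEM and 20.6% in SFB.

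**Figure D1:**
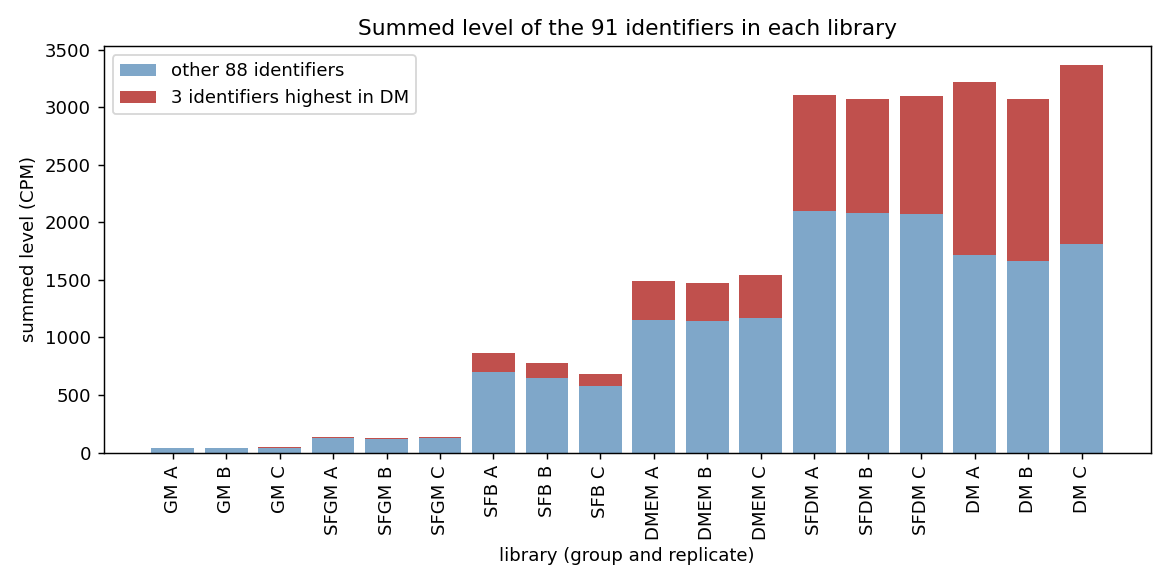
Summed level in CPM (y axis) of the 91 identifiers in each of the 18 libraries (x axis, group and replicate), split into the 3 identifiers with the highest mean level in DM (red) and the other 88 (blue). The 3 highest identifiers make up 46.3% of the sum in DM and 32.7% in SFDM, and the blue part is higher in every SFDM library than in every DM library.

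A few identifiers carried much of this sum. The 3 with the highest level in DM supplied 1490 ± 73.3 CPM there, or 46.3% of the total, and 1011 ± 16.2 CPM in SFDM, or 32.7% (SD, n = 3). Their share of the sum was 23.2% in DMEM, 17.5% in SFB and 5.93% in SFGM. The other 88 identifiers together stood at 1729 ± 76.3 CPM in DM and at 2084 ± 12.8 CPM in SFDM, which is 120% of DM. Against DM, the 3 highest reached 67.9% in SFDM, 23.4% in DMEM and 9.21% in SFB, whereas the other 88 reached 120%, 66.7% and 37.0%. Between the DM and SFDM sums, a lower level of the 3 most abundant identifiers was offset by a higher summed level of the rest. That higher sum rested on 13 identifiers at 200% or more of DM, with medians of 10.9 CPM in DM and 47.1 CPM in SFDM. Of all 91, 46 had a higher mean in SFDM and 45 a higher mean in DM. The SFDM limit left out 59 identifiers with low SFDM levels. Picking the 3 by their DM level favours a lower share in SFDM, so the split is set in part by the choice.

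ENSBTAG00000011548, the identifier with the highest level in DM, was measured at 593, 553 and 544 CPM in the DM libraries. It stood at 278, 275 and 296 CPM in SFDM, at 102, 107 and 130 CPM in DMEM and at 54.7, 43.5 and 27.6 CPM in SFB. In the growth media it was nearly silent, with 1.41, 1.78 and 0.987 CPM in SFGM and 0.177, 0.177 and 0.425 CPM in GM. No library of one 72 h group overlapped with those of another, in the order DM, SFDM, DMEM, SFB. Its SFDM mean was 50.3% of DM, the lowest share of all 91 and just above the limit. From SFGM it rose 32.2-fold in SFB (log2 difference 5.01 ± 0.245, SE, edgeR adjusted p = 2.48e-11) and 84.0-fold in DMEM (6.39 ± 0.247, edgeR adjusted p = 6.35e-13). DMEM was 2.61-fold above SFB (1.38 ± 0.176, edgeR adjusted p = 7.66e-06).

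The next in rank, ENSBTAG00000001032, had the same order of groups. Its DM libraries held 458, 414 and 530 CPM and its SFDM libraries 362, 365 and 349 CPM. The DMEM libraries held 111, 95.9 and 104 CPM, and the SFB libraries 46.1, 35.2 and 35.7 CPM. At 0 h it lay at 1.94, 1.75 and 1.54 CPM in SFGM and at 0.601, 0.424 and 0.695 CPM in GM. Every group again lay apart from its neighbours, and the SFDM mean was 76.7% of DM. It rose 24.2-fold in SFB and 62.2-fold in DMEM over SFGM (edgeR adjusted p = 1.12e-13 and 3.25e-15), and was 2.57-fold higher in DMEM than in SFB (edgeR adjusted p = 2.95e-08).

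The identifier of rank 3 in DM stood at 459 ± 18.7 CPM in DM, 369 ± 13.6 in SFDM, 132 ± 2.44 in DMEM, 56.2 ± 10.9 in SFB, 4.75 ± 0.550 in SFGM and 0.880 ± 0.209 in GM (SD, n = 3). Below these 3 the levels dropped steeply. Rank 4 stood at 80.7 CPM in DM, and the median over all 91 was 13.4 CPM, with 59 of them at 10 CPM or more.

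**Figure D2:**
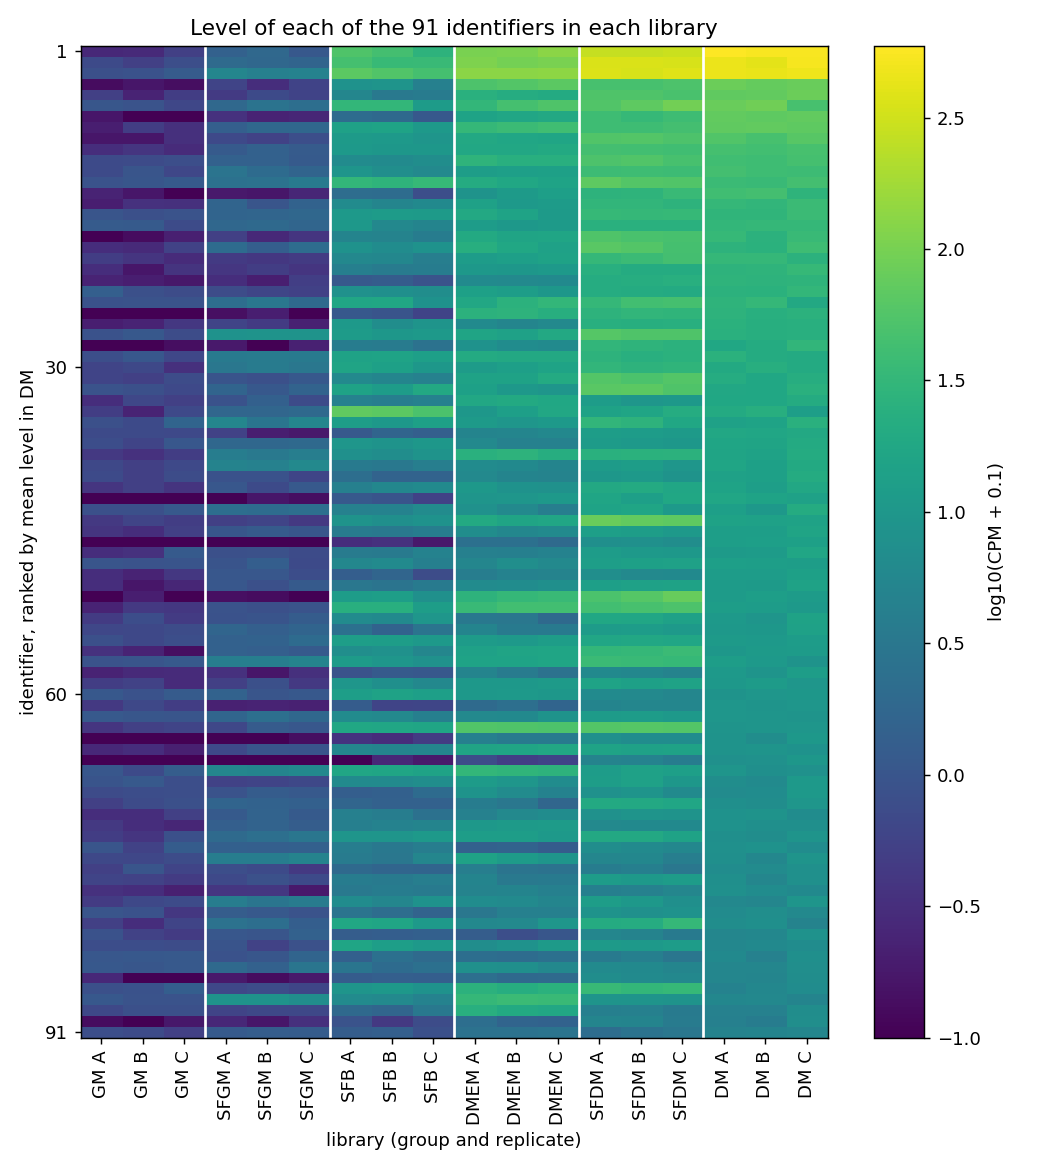
Level of each of the 91 identifiers (rows, ranked by their mean in DM) in each library (columns, group and replicate), coloured as log10(CPM + 0.1). Levels are low in the GM and SFGM columns and intermediate in SFB. Rows with a higher mean in SFDM than in DM are scattered from rank 9 to rank 88.

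Typical levels rose from group to group. The median of the 91 mean levels was 0.458 CPM in GM, 1.003 in SFGM, 5.35 in SFB, 11.1 in DMEM, 13.4 in DM and 17.5 in SFDM. At least 5 CPM was reached by 4 of the 91 in SFGM, 51 in SFB, 70 in DMEM and 82 in SFDM. By identifier, the highest of the 6 group means was found in SFDM for 42, in DM for 39, in DMEM for 7 and in SFB for 3. The limit of 50% shapes this count. Of the 59 identifiers that it left out, 55 were highest in DM, 4 in DMEM and 0 in SFDM. Replicates differed most in the groups with the lowest medians, GM, SFGM and SFB. In SFB, replicate C also lay apart from A and B. The median coefficient of variation (SD over mean) was 29.8% in GM, 20.6% in SFGM and 18.2% in SFB, against 12.3% in DMEM, 11.6% in DM and 8.01% in SFDM.

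SFDM and DM were close for the typical identifier and far apart for some. The SFDM mean was between 50.3% and 646% of the DM mean, with a median of 100%. It was at or above the DM mean for 46 and below it for 45, so the limit of 50% does not mean that the DM level itself was reached. Between 50% and 75% of DM lay 23 identifiers, between 75% and 100% lay 22, between 100% and 200% lay 33, and 13 were at 200% or more. In 29 identifiers every SFDM library was above every DM library (24.9% of the 14637 genes tested), and in another 29 every DM library was above every SFDM library (26.4%). The limit of 50% removed the low side of this distribution, so the median and the counts are set in part by the choice.

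The 13 identifiers at 200% or more had modest levels in DM, with a median of 10.9 CPM, and a median of 47.1 CPM in SFDM. Their levels in the other serum-free media were also comparatively high, with medians of 144% of DM in DMEM and 90.2% in SFB. The most extreme of them, of rank 63, stood at 8.84, 9.02 and 9.44 CPM in DM and at 58.8, 59.8 and 57.8 CPM in SFDM. In DMEM it stood at 55.9, 54.3 and 51.9 CPM, in SFB at 17.5, 17.0 and 16.7 CPM, and in SFGM at 0.538, 1.12 and 0.948 CPM. All serum-free 72 h libraries of this identifier were above all DM libraries. By contrast, the 23 identifiers at 50% to 75% of DM in SFDM had medians of 34.5% in DMEM and 12.8% in SFB. All these shares have the DM level as denominator, so a low DM level raises them together and the contrast is partly built in. In CPM, the medians of the 13 and the 23 were 16.2 and 5.20 in DMEM and 9.81 and 1.87 in SFB.

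**Figure D3:**
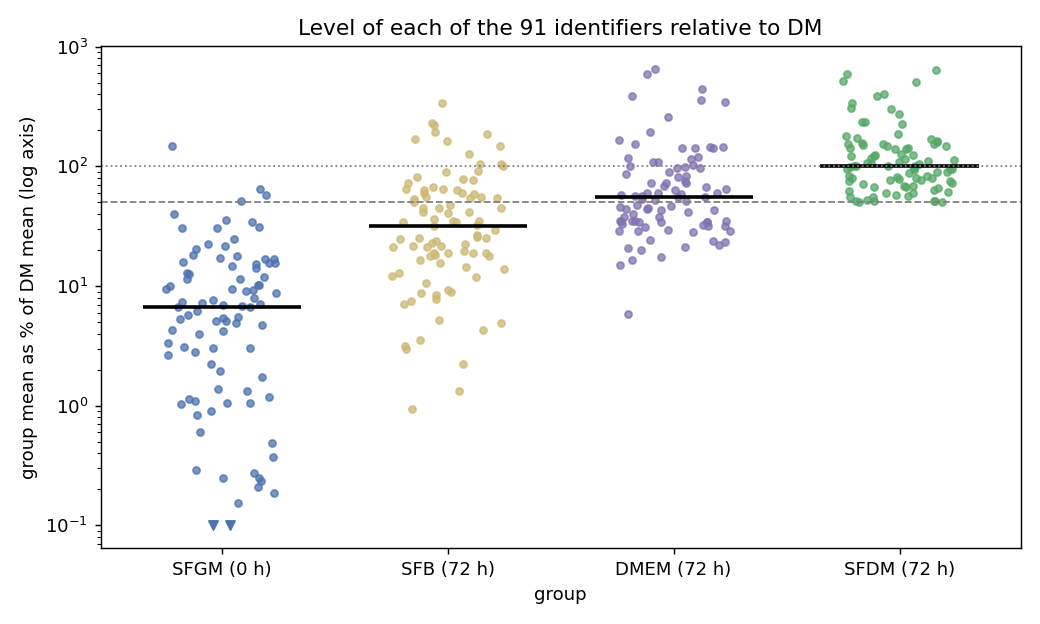
Mean level of each of the 91 identifiers (points) in SFGM, SFB, DMEM and SFDM as a percentage of its DM mean, on a log axis. Black bars are medians (6.75%, 31.5%, 55.1% and 100%), the dashed and dotted lines mark 50% and 100%, points below the dashed line are missing in SFDM by the rule, and triangles are 2 identifiers without a count in SFGM.

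Most of the 91 identifiers were higher after 72 h in the base medium than in serum-free growth medium. From SFGM to SFB, 82 rose and 2 fell, and 7 did not pass the test. With only SFB and SFGM in the fit, the filter on low counts kept 87 of the 91, and 79 of these rose. Those it dropped entered the main test through their counts in other groups. Over all 14637 genes tested, 28.6% were called higher and 29.9% lower. The 91 were chosen for low levels in GM and were also low in SFGM, with a median of 1.003 CPM. This left them little room to fall, so the share called lower over all genes is not a like measure for their few falls. The median log2 difference of the 91 was 2.65, or 6.28-fold, against -0.02 over all genes tested. Of the 82 rises, 79 were at least 2-fold (11.0% of all genes tested) and 63 at least 4-fold (4.41%). The choice of low GM and high DM and SFDM levels favours such rises. The shares of all genes are therefore not like measures for them either. Of the 59 left out by the SFDM limit, 46 also rose. The test was edgeR's quasi-likelihood test with Benjamini-Hochberg adjustment over all genes tested, and a call was an adjusted p below 0.05. With the 2 identifiers that had no count in SFGM set at 4.65-fold and 2.09-fold, the median was 2.57. These folds are SFB means over a floor of 3 counts for the SFGM group. The SFB means rest on 5, 6 and 2 counts (rank 46) and on 0, 4 and 2 counts (rank 66), so neither fold is a firm bound.

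Both identifiers that fell in SFB had comparatively high levels in SFGM. ENSBTAG00000004038 was measured at 8.48, 8.57 and 7.03 CPM in SFGM and at 6.57, 5.78 and 4.65 CPM in SFB, without overlap. The difference was 1.31-fold (log2 -0.39 ± 0.119, SE, edgeR adjusted p = 0.0102). In DMEM the same identifier stood at 32.4, 37.4 and 36.6 CPM, above every library of every other group. This was 4.63-fold above SFGM (edgeR adjusted p = 2.20e-11) and 6.06-fold above SFB (edgeR adjusted p = 2.43e-11). It stood at 5.57, 5.65 and 5.02 CPM in DM and at 8.85, 8.82 and 8.60 CPM in SFDM, so its SFGM mean of 8.03 CPM was already above the DM mean, which was the case for 1 of the 91.

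ENSBTAG00000016170 stood at 4.84, 4.51 and 5.85 CPM in SFGM and at 3.50, 3.09 and 3.99 CPM in SFB, also without overlap (1.32-fold lower, log2 -0.40 ± 0.166, edgeR adjusted p = 0.0476). In DMEM it stood at 6.45, 6.14 and 4.94 CPM, overlapping SFGM, and that difference did not pass (log2 0.28, edgeR adjusted p = 0.132). Its DM libraries held 16.6, 14.0 and 19.2 CPM and its SFDM libraries 11.8, 12.3 and 9.61 CPM. Neither call held in every setting. With the replicate letter as a block and only SFB and SFGM in the fit both falls were called (edgeR adjusted p = 0.0247 and 0.0354). With the block and all groups in the fit 1 was called, when any single library was left out 1 was called, and with SFB and SFGM alone and no block 0 were called (2 at an unadjusted p below 0.05 in edgeR, and 1 with DESeq2 on all groups).

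The 7 identifiers that did not pass between SFGM and SFB all had low levels in SFB, from 1.08 to 4.01 CPM. They included rank 91, at 1.14 CPM in SFGM and 1.08 CPM in SFB, and rank 75, at 4.16 and 4.01 CPM. The highest SFB level of the 91 was that of rank 34, which rose 39.2-fold, from 1.65, 1.68 and 1.86 CPM in SFGM to 71.7, 65.4 and 51.2 CPM in SFB (edgeR adjusted p = 9.98e-11). Its SFB mean was 337% of DM, and every SFB library of this identifier was above every library of the other groups. It stood at 18.6 ± 5.08 CPM in DM, 17.8 ± 3.65 in SFDM and 13.6 ± 4.11 in DMEM (SD, n = 3).

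In the DMEM-based differentiation medium, 88 of the 91 identifiers were higher than in SFGM and 0 lower by edgeR and by DESeq2. Over all genes tested, 32.1% were called higher and 31.3% lower. The low SFGM levels of the 91 left little room for a fall here too, so the 2 shares called lower are not alike. The choice favours rises here as well, so the share called higher is not a like measure either. At an unadjusted p below 0.05, edgeR also found 0 of the 91 lower. The median log2 difference was 3.44, or 10.9-fold, against 0.00 over all genes. Of the 88 rises, 86 were at least 2-fold (14.0% of all genes tested) and 72 at least 4-fold (6.21%). The count of 88 was the same under every alternative setting and without any single SFGM or DMEM library.

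Besides ENSBTAG00000016170, the 3 that did not pass were of rank 74 and rank 82. Rank 74 stood at 1.32 ± 0.0245 CPM in SFGM and 1.35 ± 0.190 CPM in DMEM. Rank 82 stood at 1.07 ± 0.274 and 0.953 ± 0.248 CPM (SD, n = 3). Both were above 6 CPM in DM. For the 2 identifiers without a count in SFGM, ranks 46 and 66, the rise in DMEM was at least 58.0-fold and 13.1-fold against a floor of 3 counts over the SFGM group.

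**Figure D4:**
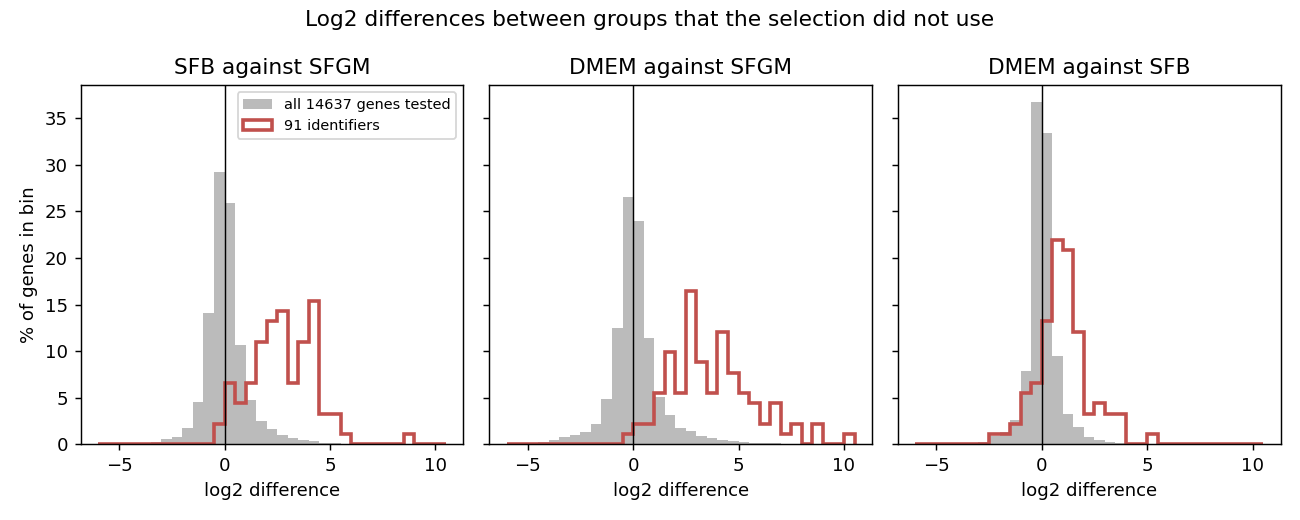
Distribution of log2 differences (x axis, bins of 0.5) in the 3 tested comparisons, as the percentage of genes in each bin (y axis), for all 14637 genes tested (grey) and for the 91 identifiers (red line). The medians of the 91 lie at 2.65, 3.44 and 0.92, while those of all genes lie within 0.03 of 0.

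Between the 2 tested 72 h media, 64 of the 91 identifiers were higher in DMEM than in SFB and 10 were lower. With only these 2 groups in the fit and no block, the filter kept 90 of the 91, and 58 were higher and 8 lower. Over all genes tested, 20.8% were higher in DMEM and 20.1% lower. The median log2 difference of the 91 was 0.92, or 1.89-fold, against 0.00 over all genes. Of the 64, 44 differed by at least 2-fold (6.20% of all genes tested) and 14 by at least 4-fold (1.78%). This comparison shares its libraries with the comparisons against SFGM, so the 3 sets of calls are not independent.

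The order SFGM, SFB, DMEM from low to high held for the means of 73 identifiers. In 13 SFB was highest and SFGM lowest, in 4 SFB was lowest and DMEM highest, and in 1 the order was DMEM, SFGM, SFB. The greatest excess of DMEM over SFB was found for rank 25, which was at 0 counts throughout GM. This identifier stood at 0.982, 0.855 and 0.469 CPM in SFB and at 26.4, 27.5 and 23.3 CPM in DMEM, a 32.5-fold difference (edgeR adjusted p = 3.68e-11). In DM it stood at 26.0 ± 1.75 CPM and in SFDM at 29.0 ± 1.75 CPM (SD, n = 3), so that the 3 differentiation media lay close together, while the base medium stood at 2.96% of DM.

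Including rank 25, the 5 identifiers without a count in GM stood at means of 0.0804 to 0.770 CPM in SFB, at 0.502 to 25.7 CPM in DMEM, at 4.36 to 29.0 CPM in SFDM and at 8.55 to 26.0 CPM in DM. Ranks 42, 46 and 64 among them were 12.5-fold, 11.9-fold and 13.3-fold higher in DMEM than in SFB. A near absence of counts at 0 h did not always go with a low SFB level. Rank 51, with 1, 1 and 0 counts in the SFGM libraries and 0, 3 and 0 in GM, stood at 12.2, 12.9 and 7.74 CPM in SFB, which is 90.2% of DM. It had the largest fitted rise of the 91 from SFGM to SFB, for which no fold is given because its SFGM level rests on 2 counts. Grouped by their SFGM level, which the choice did not use, the 45 identifiers below 1 CPM in SFGM had a median log2 rise of 3.81 in SFB and 4.70 in DMEM. The 46 at 1 CPM or more had medians of 2.03 and 2.54. A low starting level enters these differences as their reference, so the contrast between these sets is partly built in. At 72 h, where it does not, the medians were 3.81 and 7.76 CPM in SFB and 8.86 and 11.9 CPM in DMEM.

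The 10 identifiers that were lower in DMEM than in SFB differed by 1.38-fold to 4.77-fold. The largest difference was that of rank 34, described above for its SFB level. For the next, rank 53, the means were 7.41 CPM in SFB and 2.66 CPM in DMEM, 2.86-fold apart. Rank 13, the most abundant of the 10 in DM, stood at 31.1 CPM in SFB, 18.01 in DMEM, 60.7 in SFDM and 39.6 in DM. With the replicate letter as a block and only these groups in the fit, 5 identifiers were lower and 45 higher.

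**Figure D5:**
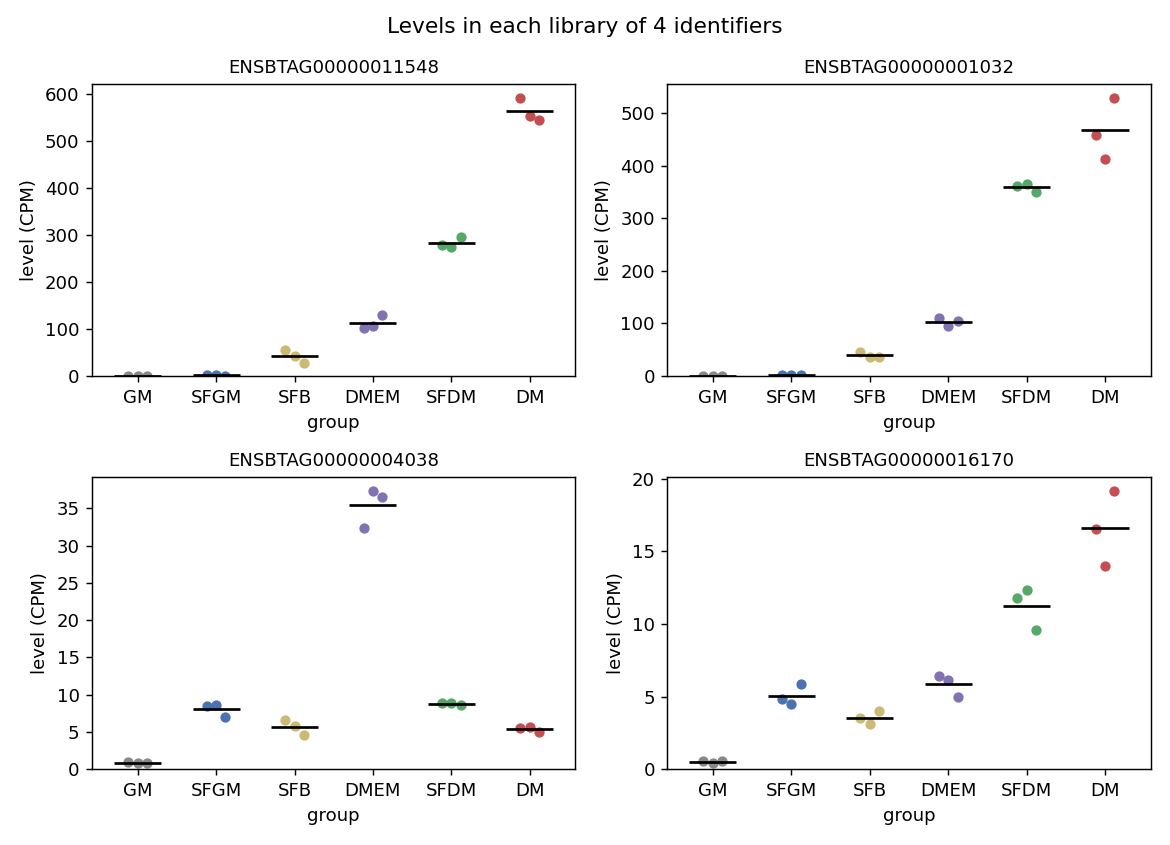
Level in CPM (y axis, starting at 0) of 4 identifiers in each library of the 6 groups (x axis); points are replicates A, B and C from left to right and bars are means. The 2 upper identifiers increase from SFB through DMEM and SFDM to DM, ENSBTAG00000004038 is highest in DMEM, and ENSBTAG00000016170 is lower in SFB than in SFGM.

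DMEM and SFDM share the differentiation supplements by name and differ in the base. For 79 of the 91 identifiers the SFDM mean was higher than the DMEM mean, and for 12 it was lower. In 69 every SFDM library was above every DMEM library (21.2% of all genes tested), and in 8 every DMEM library was above (31.0%). The identifiers were chosen for a high SFDM level, which favours this direction. Among the 59 that met the GM and DM limits but stayed below 50% of DM in SFDM, the SFDM mean was higher than DMEM for 32. Over all 150, which were chosen without regard to SFDM, it was higher for 111, and in 96 every SFDM library was above every DMEM library.

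Relative to SFB, the SFDM mean was higher for 87 of the 91, and every SFDM library was above every SFB library for 85 (15.9% of all genes tested). Among all 150 the mean was higher for 137 and the libraries were separate for 125. Relative to SFGM, the SFDM mean was higher for all 91, and for 144 of the 150.

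The limit of 50% of DM, applied to the other media over the same 150 identifiers, was reached by 91 with SFDM, 60 with DMEM, 34 with SFB and 5 with SFGM. Of the 91 reached in SFDM, 49 also reached it in DMEM and 32 in SFB. Of the 59 not reached in SFDM, 11 reached it in DMEM and 2 in SFB. The DM mean itself was reached or passed by 22 of the 91 in DMEM, by 12 in SFB and by 1 in SFGM.

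Set beside the 59, the 91 had higher levels in the media that the choice did not use. The medians were 5.35 against 1.49 CPM in SFB, 11.1 against 3.36 CPM in DMEM and 1.003 against 0.369 CPM in SFGM, although the medians in DM were similar, at 13.4 and 12.8 CPM. Of the 59, 46 rose and 2 fell from SFGM to SFB (median log2 2.03), and 54 rose and 1 fell from SFGM to DMEM (3.01). From SFB to DMEM 42 rose and 4 fell (1.23). No test of the difference between the 2 lists was made. The lists were split by SFDM level. DMEM shares the SFDM supplements by name, and SFB and DMEM cells also came from SFGM, so the split may favour higher levels there.

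At 0 h, SFGM had a higher mean than GM for 81 of the 91 identifiers and a lower one for 8. In 59 every SFGM library was above every GM library (29.5% of all genes tested). The GM limit of 1 CPM favours this direction. The highest SFGM levels were 8.50 CPM for rank 27 and 8.03 CPM for ENSBTAG00000004038, and 46 of the 91 were at 1 CPM or more in SFGM. All GM libraries were without a count for 5 of the 91, and all SFGM libraries for 2.

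Identifiers near the limits show how far membership rests on small differences. Just inside the SFDM limit lay shares of 50.3% and 50.5% of DM, and just outside 48.4% and 47.9%. Just inside the DM limit lay 5.02 and 5.08 CPM, and just outside 4.97 and 4.96 CPM. Just inside the GM limit lay 0.996 and 0.984 CPM, and just outside 1.01 and 1.01 CPM. One of those outside the GM limit stood at 39.9 CPM in SFDM, 568% of its DM mean.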

How the data were processed

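The deposited file holds raw counts, whole reads per Ensembl bovine identifier, for 18 poly(A) libraries. The tools named in the submitters' processing notes are STAR 2.7 and featureCounts, with the build bosTau9. Parameters, annotation release and strand setting were not given in the sources used here. Counts of overlapping, antisense or near-identical genes may therefore be shared or lost. Columns were matched to samples by label.

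Levels are CPM by column totals, and 3 counts over a group served as floor. Tests used edgeR 4.0.16 in R 4.3.3: filterByExpr (minimum count 10, minimum total 15), which kept 14637 genes and all 91 identifiers, TMM scaling and a quasi-likelihood fit with a mean per group over all 18 libraries. SE is the log2 difference over the root of F. The members, lists and tests were chosen with earlier results of these data known. On simulated counts for DMEM against SFB (5 draws of 14481 to 14505 genes, 50 changed per fold), 52% to 66% of 1.5-fold, 84% to 94% of 2-fold and 98% to 100% of 4-fold changes were recovered, with 1.69% to 6.99% false calls. The changed genes were drawn only from those above a minimum mean level over the 6 groups, so recovery at lower levels was not measured.

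The labels call the replicates biological triplicates without naming animals or cultures, so p-values reflect only how far these samples vary. Replicate pairs differed by a chi-square per degree of freedom of 1.90 to 44.2, more than counting error gives. SFB replicate C (42.7 and 44.0 from A and B) and DMEM replicates A and C (44.2) lay furthest apart. Letters A, B and C correlated at 0.162, 0.310 and 0.489 between SFB and SFGM, across genes. SFB replicates B and C correlated best with the same letter of SFGM, but SFB replicate A correlated best with SFGM replicate B. In both comparisons with DMEM all these correlations were below 0. The reported tests used no block, so the letters were treated as pairs only in the alternative fits with a replicate block.

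The reference table, of assembly ARS-UCD2.0, held no Ensembl identifiers: 0 matched a symbol. The 18 symbol lists, promoters and sequences were not analysed here. Named members are the 2 highest in DM and the 2 that fell in SFB. Others are given by rank: the next highest in DM, the extremes of SFB and DMEM relative to DM, and the neighbours of each limit. Ranks shown for other reasons, such as not passing a test, were chosen after their values were seen. Alternatives were RLE and total scaling, other filters, DESeq2 1.42.0, only the compared groups, the replicate block, leaving out each library, and other limits of the rule.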

Additional observations from a re-analysis of the deposited data

How the results depend on the processing

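The rises in SFB (79 to 83) and DMEM (88) over SFGM held under every setting tried, as did the excess of rises over falls in DMEM against SFB (45 to 67 higher). The 2 falls in SFB were called with scaling by totals alone, with the filter of 1 CPM in 3 libraries and with the replicate block and only the compared groups. They became 1 with RLE scaling, with no expression filter, with DESeq2, with the replicate block on all groups and without any single library, and 0 with only the compared groups and no block (87 of 91 tested, 2 falls at an unadjusted p below 0.05 in edgeR); the cause was not tested. Scaling by totals alone, which moved the median of all genes to -0.14, gave a median of 2.54 for SFB against SFGM. With the replicate block and only the compared groups, DMEM against SFB had 5 falls and a median of 0.85, and apart from this count and the falls in SFB the block changed no count by over 1.5 times. Leaving out a library gave medians of 3.23 to 3.52 for DMEM against SFGM and 0.89 to 1.03 for DMEM against SFB. The rule found 46 identifiers with SFDM at 100% of DM, 59 with DM at 10 CPM and 47 with GM below 0.5 CPM. It found 88 to 94 without a single library and 98 with TMM-scaled totals, all 91 among them. Depth limits the GM and SFGM values, which rest on few counts.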
